A study of Mus musculus with 18 samples.

Results

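The comparison described here sets untreated macrophages homozygous for the loss of Wbp7 (KO, Wbp7-/-) against untreated macrophages heterozygous for it (HET, Wbp7+/-). Its members are the 3 arrays titled KO, untreated, and the 3 titled HET, untreated, which make 6 of the 18 arrays of the series. The other 12 arrays carry the same 2 genotypes after 2 h or 4 h with lipopolysaccharide (LPS, a bacterial cell wall product) at 10 ug/ml. All cells were primary macrophages grown from mouse bone marrow in medium conditioned by L929 cells and taken at day 7 of differentiation. The mice had a mixed background, 94% C57BL/6 and 6% 129/Ola. The control group had itself lost 1 allele of Wbp7, and no wild-type cells were analysed here, so every difference is between no intact allele and 1 intact allele. The labels give neither the age of the mice, nor how the alleles were made, nor whether the replicates came from separate animals or cultures, so the p-values measure only the spread between these samples, which may be technical.

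Wbp7, now named Kmt2b, encodes a methyltransferase of the MLL family. It works in a complex with Wdr5, Ash2l, Rbbp5 and Menin and adds methyl groups to lysine 4 of histone H3, a mark of active promoters. Its CXXC domain binds CpG dinucleotides that carry no methyl group, and such dinucleotides are concentrated in the CpG islands where many genes start. Macrophages grown in this way are driven by the growth factor Csf1, which L929 cells secrete, and serve as a standard model of the resting tissue macrophage that senses bacterial products through Toll-like receptors.

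Values are the signals on a log2 scale that the authors deposited, so a difference of 1 is a 2-fold change, and differences are given as KO minus HET each with its standard error (SE) from limma. A probe set, the group of probes that reports a transcript, was called where its Benjamini-Hochberg adjusted p from limma was under 0.05 over the 21137 probe sets assigned to a single gene (19475 genes). The medians of the 6 arrays lay between 8.05 and 8.12, and their lower quartiles between 6.71 and 6.84; no detection calls were used, and a group whose 3 signals were all under the lower quartile of their arrays is called dim. HET replicate 1 stood apart from the rest. The SD over probe sets of its difference from the other HET arrays was 0.43 to 0.47, against 0.26 between HET replicates 2 and 3 and 0.20 to 0.24 between KO arrays. With 3 arrays per group, precision is limited by their number.

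The targeted gene itself was read by a single probe set. Kmt2b gave 10.97, 10.49 and 10.51 on HET replicates 1, 2 and 3 and 10.35, 10.41 and 10.47 on KO replicates 1, 2 and 3. The KO arrays lay just under the HET arrays, with HET replicate 1 the highest of all. The difference was −0.24 (SE 0.16, limma adjusted p = 1), and without HET replicate 1 it was −0.09. The sources used here do not say whether this probe set lies in the part of the gene that was removed, so it checks neither the deletion nor the labels.

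Of the 21137 probe sets, 96 were called (0.454%). Of these, 85 were lower in KO (0.402%), standing for 74 genes, and 11 were higher (0.0520%), standing for 11 genes. The median difference of the lower ones was −0.89 and that of the higher ones 1.08, against −0.01 over all probe sets tested. A change of at least 1 log2 unit was found in 34 of the lower and 6 of the higher probe sets, and 11 were lower by at least 2. In each of the 96, all KO arrays lay on one side of all HET arrays, which was so in 8.59% of all probe sets (5.26% lower and 3.34% higher). The HET means of the lower probe sets ran from 5.88 to 13.41 with a median of 8.81, against 8.22 over all probe sets. On 14 of the lower probe sets every KO array was below the lower quartile of its array, and on 3 of these the HET arrays were too.

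**Figure D1:**
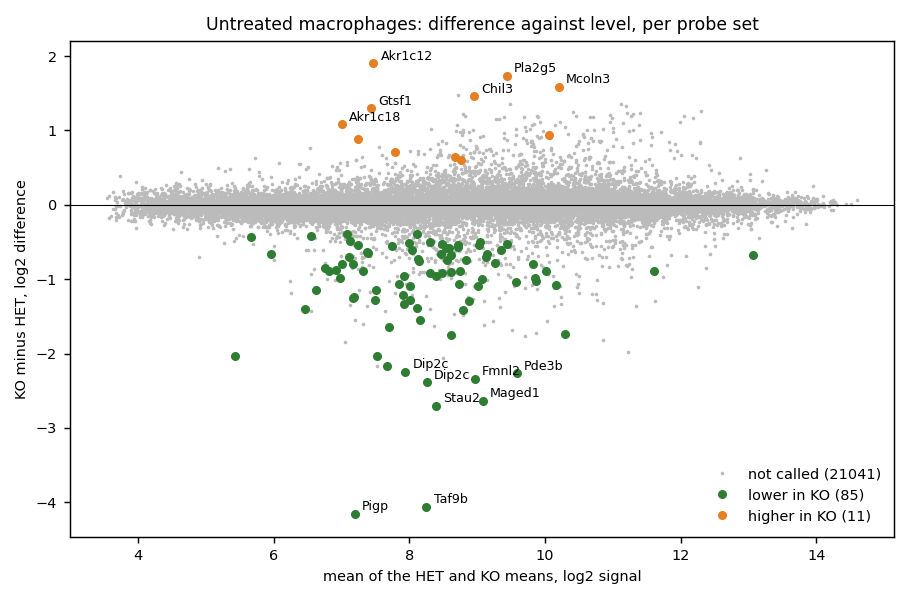
Difference between KO and HET (KO minus HET, log2) against the mean of the HET and KO signals (log2) for each of the 21137 probe sets in untreated cells, with the 85 called lower and the 11 called higher in colour and the rest in grey. The called points below 0 reach −4.16 (Pigp) and lie at dim and bright signals alike, while the highest called point lies at 1.90 (Akr1c12).

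Glycosylphosphatidylinositol (GPI) is the lipid anchor that holds many proteins in the outer face of the plasma membrane, among them Cd14, the co-receptor that hands LPS to Tlr4. Pigp, which belongs to the enzyme complex that begins to build the anchor, had the lowest difference of all called probe sets. Its probe set 10545528 gave 9.01, 9.52 and 9.28 in HET and 5.43, 4.58 and 5.34 in KO, a difference of −4.16 (SE 0.36, limma adjusted p = 2.29e-05). The KO group was dim and more than 3 units under the lowest HET signal; no fold is given, since these KO signals were not shown to lie above background. The second Pigp probe set, 10441055, fell by much less: it gave 8.98, 8.93 and 9.07 in HET and 8.34, 8.56 and 8.40 in KO, a difference of −0.56 (SE 0.09, adjusted p = 0.0131). The groups did not overlap on it, but the call was lost in 3 of the 6 fits that left out 1 array, those without HET replicate 3, KO replicate 1 and KO replicate 3 (adjusted p = 0.0706, 0.0698 and 0.0801). The sources used here do not say which Pigp transcripts each probe set reads, and why they differ was not tested.

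Pigp starts beside Ttc3, an E3 ubiquitin ligase with tetratricopeptide repeats, and Ttc3 fell too. It gave 8.40, 8.84 and 8.37 in HET and 6.77, 6.25 and 6.49 in KO, where it was dim, a difference of −2.03 (SE 0.19, adjusted p = 3.24e-05). In RefSeq the nearest pair of starts of these divergent genes lies 29 bases apart, and their windows from 250 bases before to 50 bases after the start share up to 288 of 300 bases. The Ttc3 window is shown because it covers this shared start region. It lies at chr16:94370489-94370788 on the plus strand of GRCm38.p6 (RefSeq), and capitals mark its 34 CG dinucleotides.
Ttc3: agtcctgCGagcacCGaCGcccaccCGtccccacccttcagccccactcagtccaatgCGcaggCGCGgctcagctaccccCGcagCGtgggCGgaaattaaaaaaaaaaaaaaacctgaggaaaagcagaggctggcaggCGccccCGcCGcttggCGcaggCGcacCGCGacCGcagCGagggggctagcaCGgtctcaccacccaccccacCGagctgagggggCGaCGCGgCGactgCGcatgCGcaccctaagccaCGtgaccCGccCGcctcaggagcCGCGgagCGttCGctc
Of the 69 called genes with a RefSeq window, 13 had a gene starting within 1000 bases on the opposite strand, and 6 of these partners were measured. Pigp and Ttc3 were the only 2 partners called, and each is the partner of the other, so they are a single pair. Among the other 4, only BC106179 was divergent like this pair, and the rest overlapped the called gene. The other 4 were R74862 beside Cd81 (−0.19), BC106179 beside St6gal1 (−0.06), 4933431E20Rik beside Gstm5 (−0.08) and 4930594M22Rik beside Ggact (0.00), each with an adjusted p of 1.

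Among the 30 measured genes of GPI anchor synthesis, 2 fell and none rose, where 0.402% of all probe sets fell and 0.0520% rose, and the median difference was 0.02, against −0.01 over all probe sets. This list and those below were chosen with earlier results of these data known, so their shares of called genes are a description only. The list counts Pigp through its brighter probe set, 10441055, whose call was lost in the 3 fits named above. The other member that fell was Pigz, a mannosyltransferase that adds a side mannose to the anchor. Pigz gave 8.99, 8.79 and 8.99 in HET and 8.28, 8.19 and 8.09 in KO, a difference of −0.74 (SE 0.10, adjusted p = 0.00184), and this call held when any 1 array was left out. The largest differences among the members that were not called were −0.49 for Pgap1, which removes a fatty acid from the anchor's inositol, and 0.21 for Pigf, which works on its ethanolamine phosphate. Of 27 measured genes for proteins that carry the anchor, none was called (median −0.08). Nt5e, the ecto-enzyme Cd73, had −1.22 (adjusted p = 0.776) and Cd24a 0.99 (adjusted p = 0.409). Nt5e was far higher on HET replicate 1 than on every other array. Cd14 gave 13.03, 12.29 and 12.31 in HET and 12.48, 12.33 and 12.48 in KO, a difference of −0.11 (SE 0.17, adjusted p = 1). Its transcript was far above the array medians in both genotypes, with overlapping groups.

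Taf9b, a close relative of the TFIID subunit Taf9, had the next lowest difference. It gave 10.10, 10.21 and 10.53 in HET and 6.27, 6.20 and 6.20 in KO, a difference of −4.06 (SE 0.26, adjusted p = 5.97e-07). The 3 KO signals were nearly equal and dim, so that no fold is given here either. Taf9 itself was at 0.14 (adjusted p = 1), and Taf9b was the only called member of the 16 measured TFIID genes, whose median was 0.03, beside 0.402% of all probe sets called lower. Of the others, Taf4b (0.32) and Taf13 (0.28) had the largest differences. Stau2, a protein that binds double-stranded RNA and carries messenger RNA, gave 9.27, 10.04 and 9.92 in HET and 7.29, 6.96 and 6.87 in KO, a difference of −2.70 (SE 0.26, adjusted p = 5.28e-05). Maged1, a member of the MAGE family encoded on the X chromosome, gave 10.06, 10.71 and 10.43 in HET and 8.22, 7.71 and 7.37 in KO, a difference of −2.63 (SE 0.24, adjusted p = 3.24e-05). In both genes HET replicate 1 was the lowest HET array and KO replicate 1 the highest KO array. Maged2, its relative on the same chromosome, fell by 0.63 (adjusted p = 0.0168). In all, 5 of the 74 lower genes (6.76%) were X-linked, against 3.56% of the genes tested.

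Dip2c, a member of the disco-interacting protein family, was read by 5 probe sets, of which 4 were called. The probe set 10403455 gave 9.79, 9.27 and 9.30 in HET and 7.18, 7.11 and 6.91 in KO, a difference of −2.38 (SE 0.14, adjusted p = 4.65e-07). The other called ones had differences of −2.25, −2.03 (10403464, dim in both groups) and −0.90, and the last, 10403453, had −0.31 (adjusted p = 0.977). The probe sets of 1 gene thus spanned over 2 log2 units. Dock6, a guanine nucleotide exchange factor, was read by 15 probe sets, all below 0, of which 5 were called with differences from −0.78 to −0.40. Both probe sets of Gkap1, a protein that anchors cGMP-dependent kinase, were called (−1.38 and −1.24, the latter dim in KO), as were both of Cmtm4 (−1.07 and −0.96) and both of Tanc2 (−1.06 and −0.72). The windows of Taf9b, Maged1 and Dip2c are shown as examples of lower genes with many CG dinucleotides, chosen after the counts were seen. Arhgap5, which also kept its call when any 1 array was left out, has 2 in its window, and a second window of Taf9b has 16. The windows shown lie at chrX:106221109-106221408 on the minus strand, chrX:94541976-94542275 on the minus strand and chr13:9276275-9276574 on the plus strand of GRCm38.p6 (RefSeq), with 22, 20 and 33 CG dinucleotides in capitals.
Taf9b: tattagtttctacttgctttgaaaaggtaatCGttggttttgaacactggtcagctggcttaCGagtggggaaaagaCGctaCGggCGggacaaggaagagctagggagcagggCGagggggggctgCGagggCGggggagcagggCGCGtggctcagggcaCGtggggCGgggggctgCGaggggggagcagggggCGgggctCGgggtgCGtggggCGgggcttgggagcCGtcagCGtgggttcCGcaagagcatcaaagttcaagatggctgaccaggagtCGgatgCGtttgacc
Maged1: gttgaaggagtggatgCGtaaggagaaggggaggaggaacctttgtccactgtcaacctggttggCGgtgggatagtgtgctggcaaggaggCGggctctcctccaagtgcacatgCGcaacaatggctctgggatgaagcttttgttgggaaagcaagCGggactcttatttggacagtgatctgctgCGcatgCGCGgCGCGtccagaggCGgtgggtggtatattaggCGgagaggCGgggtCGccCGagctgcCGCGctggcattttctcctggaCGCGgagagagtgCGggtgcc
Dip2c: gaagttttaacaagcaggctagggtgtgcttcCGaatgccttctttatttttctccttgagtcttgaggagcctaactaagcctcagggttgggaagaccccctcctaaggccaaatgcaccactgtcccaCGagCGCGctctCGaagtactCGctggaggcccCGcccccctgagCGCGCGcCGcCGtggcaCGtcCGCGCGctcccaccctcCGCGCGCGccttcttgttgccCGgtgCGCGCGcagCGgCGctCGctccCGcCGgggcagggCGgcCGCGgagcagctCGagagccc

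The next lowest genes had a variety of roles. Fmnl2, a formin that elongates actin filaments, gave 11.15, 9.38 and 9.88 in HET and 7.70, 8.08 and 7.62 in KO, a difference of −2.34 (SE 0.42, adjusted p = 0.0183). Arhgap5, a GTPase-activating protein, gave 8.23, 9.16 and 8.89 in HET and 6.22, 6.71 and 6.83 in KO, a difference of −2.17 (SE 0.29, adjusted p = 0.00188). HET replicate 1 was the highest HET array for Fmnl2 and the lowest for Arhgap5. Fer, a tyrosine kinase that acts at cell contacts, fell by 1.74 (adjusted p = 0.0181).

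Pde3b, a phosphodiesterase that degrades cyclic nucleotides, gave 11.72, 10.46 and 9.98 in HET and 8.91, 7.98 and 8.46 in KO, a difference of −2.27 (SE 0.45, adjusted p = 0.0391). Its HET arrays lay far apart, and without HET replicate 1 at all times its adjusted p was 0.0533. Slc36a4, an amino acid transporter, gave 11.11, 11.06 and 11.30 in HET and 9.74, 9.39 and 9.13 in KO, a difference of −1.74 (adjusted p = 0.0316). Nipa1, a magnesium transporter, fell by 1.64 (adjusted p = 9.67e-04) and Ube2e2, a ubiquitin-conjugating enzyme, by 1.54 (adjusted p = 0.0130). Zdhhc2, a palmitoyltransferase, gave 6.28, 7.89 and 7.33 in HET and 5.81, 5.54 and 5.97 in KO, where it was dim, a difference of −1.39 (SE 0.28, adjusted p = 0.0407), so that HET replicate 1 lay nearer to KO than to the other HET arrays. Tbc1d12, whose TBC domain is that of Rab GTPase-activating proteins, fell by 1.33 (SE 0.10, adjusted p = 5.71e-06), and the translation factor Eif5a2 by 1.30 (SE 0.13, adjusted p = 9.37e-05). Both kept their call when any 1 array was left out.

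**Figure D2:**
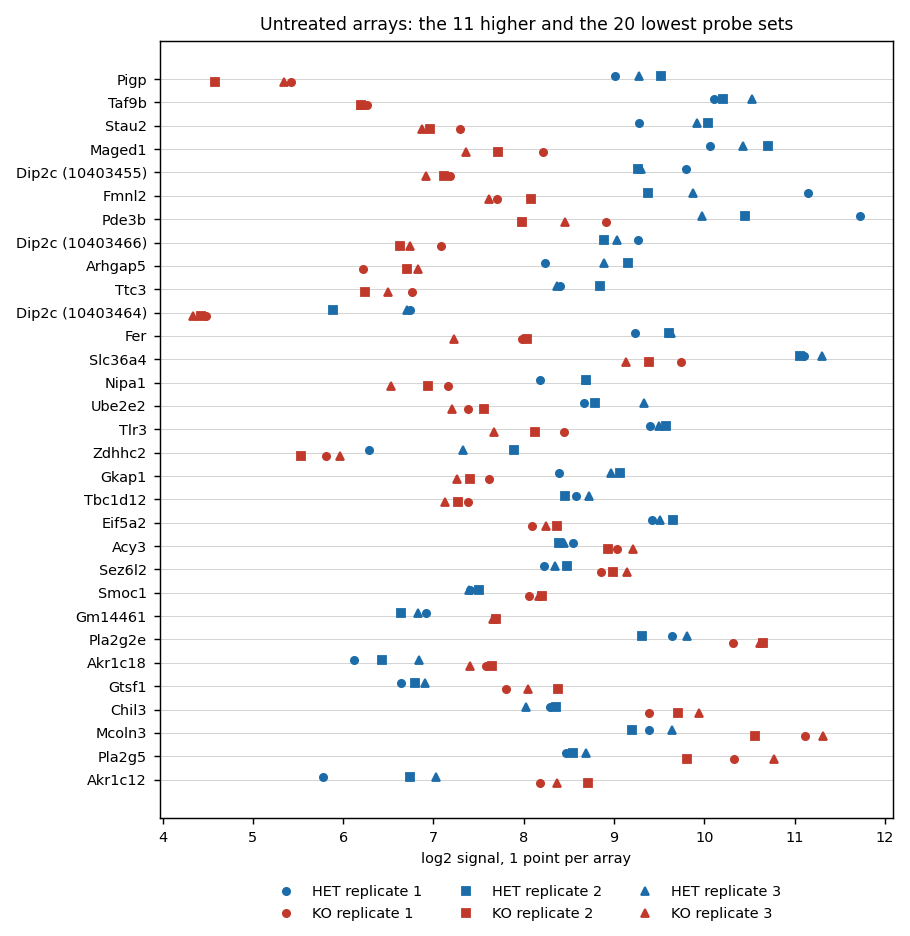
Log2 signal on each of the 6 untreated arrays (HET blue, KO red, replicate number by symbol) for the 20 lowest of the 85 called lower probe sets and all 11 called higher probe sets. In every row the 3 KO points lie on one side of the 3 HET points, and the Pigp and Taf9b rows have the widest gaps.

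Tlr3, the endosomal receptor for double-stranded RNA, was the only called member of the 11 measured Toll-like receptor genes (median −0.12), beside 0.402% of all probe sets called lower. It gave 9.40, 9.58 and 9.50 in HET and 8.45, 8.12 and 7.67 in KO, a difference of −1.41 (SE 0.21, adjusted p = 0.00395). The HET arrays lay close together above all KO arrays, and the call held when any 1 array was left out. Tlr1 (−0.27) and the chaperone Unc93b1 (−0.27) had the next largest differences, each with an adjusted p of 1. No member of the LPS receptor complex was called among 6 measured (median −0.01). Lbp had 0.31 and Ly96, the Tlr4 partner Md-2, 0.12. Of 16 measured genes of Tlr4 signalling none was called (median −0.09), with −0.71 for the kinase Ikbke and −0.23 for the adaptor Myd88. Without HET replicate 1 at all times the median of Tlr4 signalling was 0.01.

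The 11 higher genes included pairs of related enzymes. Akr1c12, an aldo-keto reductase, gave 5.78, 6.74 and 7.03 in HET and 8.18, 8.71 and 8.37 in KO, a difference of 1.90 (SE 0.27, adjusted p = 0.00377). Without HET replicate 1 at all times the difference was 1.54. No fold is given, since the HET signals were near or under the lower quartile of the arrays. Akr1c18, which inactivates progesterone, gave 6.12, 6.43 and 6.84 in HET and 7.59, 7.65 and 7.40 in KO, a difference of 1.08 (adjusted p = 0.0179). Both had their lowest signal on HET replicate 1, and their groups did not overlap. They were the 2 called of 12 measured aldo-keto reductases, whose median was 0.11, beside 0.0520% of all probe sets called higher. Since the lists were chosen with earlier results known, this share is a description only. Akr1c13 was also higher on every KO array (0.82), without passing (adjusted p = 0.171). The Akr1c genes are closely similar, and whether a probe set reads more than 1 of them was not tested.

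Pla2g5, a secreted phospholipase A2, gave 8.47, 8.55 and 8.69 in HET and 10.33, 9.81 and 10.77 in KO, a difference of 1.73 (SE 0.24, adjusted p = 0.00267) or 3.33-fold. Pla2g2e, another secreted enzyme of this kind, gave 9.64, 9.31 and 9.81 in HET and 10.32, 10.65 and 10.62 in KO, a difference of 0.94 (adjusted p = 0.0291). They were the 2 called of 21 measured phospholipase A2 and eicosanoid genes (median 0.09), beside 0.0520% of all called higher. Ptgs2, the inducible cyclooxygenase, had 0.67 and Alox5, a lipoxygenase, 0.50, each with an adjusted p of 1. Chil3, the chitinase-like protein Ym1 that marks alternatively activated macrophages, gave 8.29, 8.35 and 8.02 in HET and 9.39, 9.70 and 9.95 in KO, a difference of 1.46 (SE 0.28, adjusted p = 0.0321). It was the only called member of the 22 measured genes of alternative activation, beside 0.0520% of all called higher. The median of the list was −0.09, or −0.01 without HET replicate 1 at all times. Tgm2 (−0.86) and Clec7a (−0.76) had the largest differences among the rest and were far higher on HET replicate 1 than on the other 5 arrays. Chil4 and Rnase2a, not called, were higher on every KO array than on every HET array, which was so in 3.34% of all probe sets.

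Gtsf1, a germline protein that works with PIWI proteins in transposon silencing, gave 6.64, 6.80 and 6.91 in HET and 7.80, 8.38 and 8.05 in KO, a difference of 1.30 (SE 0.17, adjusted p = 0.00168). It was the only called member of 20 measured germline genes (median −0.03), beside 0.0520% of all probe sets called higher; 12 of them were dim on all 6 arrays. Mcoln3, a cation channel of endosomes and lysosomes, gave 9.39, 9.19 and 9.65 in HET and 11.12, 10.57 and 11.32 in KO, a difference of 1.59 (SE 0.31, adjusted p = 0.0291), and was the only called member of 5 measured channels of its kind, beside 0.0520% of all called higher. Without HET replicate 1 at all times its adjusted p was 0.0604. The others were the predicted gene Gm14461 (0.88), the secreted matrix protein Smoc1 (0.71), the membrane protein Sez6l2 (0.65) and the aminoacylase Acy3 (0.60). The windows of Akr1c12 and Chil3 are shown as examples of higher genes with few CG dinucleotides, for contrast with those of the lower genes. Not all windows differ so much, since Gtsf1 has 13 and Mcoln3 12, while the lower gene Tlr3 has 10. The windows shown lie at chr13:4279350-4279649 and chr3:106167515-106167814, both on the minus strand of GRCm38.p6 (RefSeq), with 2 and 3 CG dinucleotides in capitals.
Akr1c12: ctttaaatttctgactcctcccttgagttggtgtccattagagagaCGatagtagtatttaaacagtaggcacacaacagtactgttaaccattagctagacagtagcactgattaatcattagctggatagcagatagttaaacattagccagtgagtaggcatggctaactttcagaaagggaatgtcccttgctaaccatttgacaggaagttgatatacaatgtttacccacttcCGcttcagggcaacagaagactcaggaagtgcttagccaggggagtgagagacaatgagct
Chil3: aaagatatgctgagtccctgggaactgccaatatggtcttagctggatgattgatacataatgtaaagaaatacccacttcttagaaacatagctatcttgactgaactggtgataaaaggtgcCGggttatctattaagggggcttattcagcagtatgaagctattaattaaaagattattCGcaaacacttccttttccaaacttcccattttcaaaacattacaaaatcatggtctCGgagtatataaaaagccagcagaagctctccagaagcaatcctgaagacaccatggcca

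The windows of the lower genes held more CG dinucleotides than those of the higher genes. RefSeq windows were found for 60 of the 74 lower and 9 of the 11 higher genes, and for 15507 of all 19475 genes tested, with the mean taken where a gene had several windows. The median was 27 CG dinucleotides in the lower genes, 5 in the higher genes and 15 over all. At least 20 were present in 39 of the lower genes (65%), in none of the 9 higher genes and in 38.8% of all genes. Genes with an HET signal at or above the median of genes have more of them in any case, with a median of 21 and 57% at 20 or more. Fewer than 10 were present in 7 of the lower genes (11.7%) and 7 of the higher genes (77.8%), against 37.1% of all genes. By bins, the lower genes made up 0.122% of the genes with fewer than 10, 0.374% of those with 10 to under 20, 0.330% of those with 20 to under 30 and 1.14% of those with 30 or more. Among the lower genes the count ran from 2 in Arhgap5 to 57 in Tanc2. These counts describe letters in a fixed window and were not tested.

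**Figure D3:**
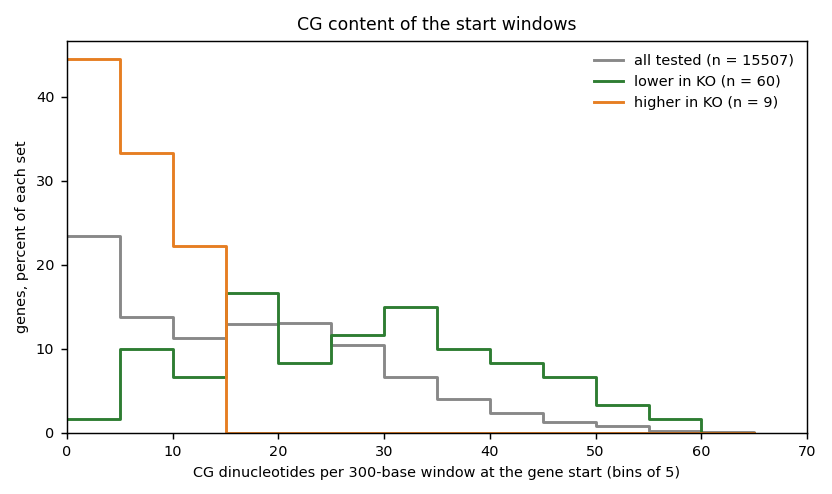
Share of genes (percent of each set) against the number of CG dinucleotides per 300-base RefSeq window, in bins of 5, for the 15507 tested genes with a window (grey) and the 60 lower and 9 higher genes among them. The higher genes stay at the left and the lower genes spread toward higher counts, with medians of 15 over all, 27 in the lower and 5 in the higher genes.

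The polycomb protein Pcgf2, a subunit of a complex that modifies histone H2A, fell by 1.28 (SE 0.09, adjusted p = 4.31e-06). Its HET arrays lay between 8.61 and 8.67 and its KO arrays between 7.26 and 7.56. None of the 20 measured genes of H3K4 methyltransferase complexes was called (median 0.02), with 0.57 for Psip1, which tethers Menin to chromatin, as the largest difference. Psip1 was at 7.78 on HET replicate 1 and between 9.12 and 9.38 on the other 5 arrays. None of 5 H3K4 demethylases was called (median −0.11). Kdm5b, one of them, gave 9.22, 7.90 and 8.04 in HET and 7.56, 7.11 and 6.94 in KO, a difference of −1.18 (adjusted p = 0.110) with groups that did not overlap. None of 20 measured imprinted genes was called either (median −0.02), with −0.58 for Igf2r and 0.27 for Grb10.

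All 36 measured genes of the interferon response, which cells switch on against viruses, had a difference below 0 (median −0.75), but none was called, against 0.402% of all probe sets called lower. In 22 of the 36 the KO arrays all lay below the HET arrays, which was so in 5.26% of all probe sets, and 32 had an unadjusted p under 0.05 by limma, against 4.39% of all. These p-values take the spread from all 18 arrays of the series and do not measure that among the 6 untreated arrays alone. The members moved largely together from array to array, so these counts are not of independent genes and are a description only. The mean level of the list was 11.58, 11.13 and 10.69 on HET replicates 1, 2 and 3 and 10.41, 9.83 and 10.67 on KO replicates 1, 2 and 3. HET replicate 1 was highest and KO replicate 2 lowest, while HET replicate 3 and KO replicate 3 were nearly level. Ifit3, which binds viral RNA together with Ifit1, gave 12.66, 11.90 and 10.74 in HET and 10.48, 8.56 and 10.83 in KO, a difference of −1.81 (SE 0.52, adjusted p = 0.319). Ifit2 had −1.56 (adjusted p = 0.241). Without HET replicate 1 at all times the median was −0.55, with all 36 still below 0, and over the fits that left out 1 array it ran from −0.98 to −0.50.

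In 2 related lists the mean levels put the 6 arrays in the same order. The 8 measured interferon-induced GTPases had a median of −0.66 with none called. Gbp7 gave 9.48, 9.41 and 9.61 in HET and 8.27, 8.11 and 8.84 in KO, a difference of −1.09 (adjusted p = 0.107), and Iigp1 had −0.93. The 5 measured p200 DNA sensors had a median of −1.55, which became −0.84 without HET replicate 1, again with none called. Ifi205 (−1.77) and Ifi209 (−1.69) had the largest differences of these. The 22 measured genes of interferon signalling had a median of −0.10 with none called, Irf9 (−0.48) and Irf1 (−0.39) being the farthest from 0. The letters GAAA, any 2 bases and GAAA again, the core of the interferon-stimulated response element, were searched on both strands of the windows. They were in 11 of the 26 interferon response genes with a window (42.3%), in 1 of 60 lower genes, in none of 9 higher genes and in 3.88% of all 15507. Only the window of Fer held them among the called genes.

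Genes of the cell cycle were far lower on 1 array. Their mean level was 8.79 on HET replicate 1, 11.57 and 11.57 on HET replicates 2 and 3, and 11.43, 11.45 and 11.41 in KO. The median difference of the 35 measured members was 0.85 with HET replicate 1 and −0.14 without it, and none was called. Bub1 (1.33), a mitotic checkpoint kinase, and Mki67 (1.26), the proliferation marker, had −0.04 and −0.09 without that array. The part of this shift in the other differences was not tested.

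**Figure D4:**
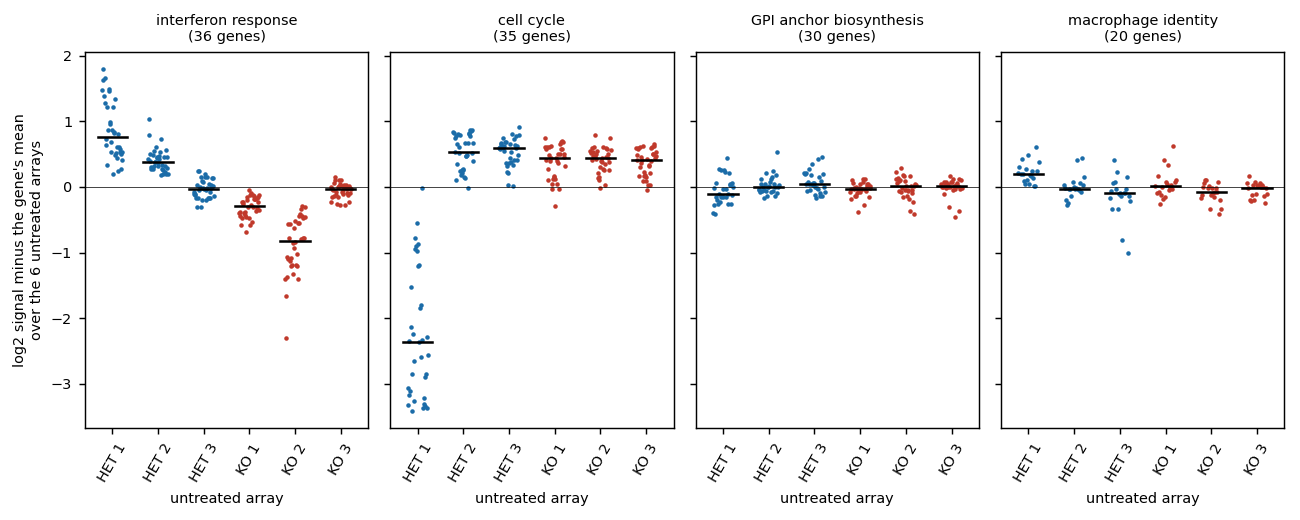
Log2 signal minus the gene's mean over the 6 untreated arrays, on each array (HET blue, KO red), with 1 point per gene and a bar at the median, for the interferon response (36 genes), the cell cycle (35), GPI anchor synthesis (30) and macrophage identity (20). The cell cycle genes are low on HET replicate 1 (median −2.36), the interferon genes go from a median of 0.76 on HET replicate 1 to −0.82 on KO replicate 2, and the other 2 lists stay near 0 on every array.

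None of the remaining lists had a called member. Among them were 28 measured cytokines and chemokines (median −0.16), with −0.96 for Ccl5 and −0.91 for Cxcl2. Both of these genes were far higher on HET replicate 1 than on every other array. Without HET replicate 1 at all times the median of the list was −0.09. The 20 genes of sterol synthesis and uptake had a median of 0.00, the largest difference being −0.50 for Lss, and the 11 targets of the sterol receptor LXR a median of −0.29. Among the latter, Pltp, which transfers phospholipids between lipoproteins, gave 13.67, 10.61 and 12.32 in HET and 9.47, 10.58 and 10.64 in KO, a difference of −1.97 (adjusted p = 0.977). Its HET arrays alone spanned over 3 units. The medians were 0.03 for 19 Nrf2 and glutathione genes, 0.01 for 18 lysosomal genes, 0.01 for 24 genes of the unfolded protein response, −0.03 for 21 of glycolysis and hypoxia and 0.13 for 16 p53 targets.

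The cells carried the markers of their label. The 20 measured macrophage genes, such as Csf1r and Adgre1, had mean levels of 12.75 to 13.11 on the 6 arrays, none was dim, and none was called (median −0.06). No member of any other marker list was called either. Among 17 measured genes of dendritic cells and MHC class II (median −0.07), H2-Aa gave 11.83, 10.04 and 8.14 in HET and 9.16, 8.11 and 9.22 in KO, and H2-Ab1 had −1.13. These genes ran over more than 3 units within HET alone. Among 18 genes of neutrophils and their progenitors (median 0.03), the granule protease gene Ctsg (1.47, adjusted p = 0.359) and the peroxidase gene Mpo (1.22, adjusted p = 0.836) had the largest differences. Ctsg gave 6.98, 8.65 and 8.33 in HET and 9.20, 9.92 and 9.25 in KO, so that its groups did not overlap. The medians of the other marker lists were −0.02 for osteoclasts (10 genes), 0.00 for mast cells and basophils (10), −0.04 for lymphocytes (15), −0.01 for erythroid cells and megakaryocytes (9) and −0.04 for stromal and endothelial cells (13). In such bulk samples a smaller number of cells of a type and less RNA per cell cannot be told apart. Xist lay between 13.10 and 13.34 on all 6 arrays, and the Y-linked Kdm5d, Uty and Eif2s3y were dim on all 6.

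The same genotypes after LPS gave each called probe set a value at 2 h and at 4 h. These arrays are not independent of the untreated ones, since arrays of the same genotype and number deviated together at the 3 times (r over probe sets 0.32 to 0.79 in 18 pairs). Of the 85 lower probe sets, 84 were below 0 at 2 h and 58 were called lower there, against 1.58% of all. At 4 h, 83 were below 0 and 49 were called lower, against 1.15% of all. The median went from −0.89 in untreated cells to −0.65 at 2 h and −0.55 at 4 h, and the difference was smaller than in untreated cells in 71 and 74 of the 85. These probe sets were selected on the untreated difference, so this count is a description only. The change of the difference with LPS was itself called in none of the 96 by limma, at either time. Over all probe sets it was called in 0 at 2 h and 8 at 4 h. Its unadjusted p by limma was under 0.05 in 19 of the 96 at 2 h and 30 at 4 h. Those counts are a description only as well, since the untreated difference used for selection enters this change. Their share over all probe sets is not given here. All 11 higher probe sets stayed above 0 at both times, and 9 were called at each, against 1.19% and 1.35% of all. In all, 52 of the 96 were called at all 3 times and 23 in untreated cells alone.

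Single genes differed in their estimates at the 3 times, but the change of the difference with LPS was called for none of them. Pigp (10545528) had −4.04 at 2 h and −3.49 at 4 h and Taf9b −3.64 and −3.17, both called. Maged1 had −2.58 and −2.45, near its untreated value. Tlr3 had −2.37 at 2 h and −1.38 at 4 h. Nipa1 had −0.94 and −0.70, with an adjusted p of 0.0806 at 4 h, and the zinc finger gene Zfp27 had −1.21 in untreated cells, −0.60 at 2 h and −0.45 at 4 h. Zdhhc2 (−2.27 and −2.29) and Ube2e2 (−1.94 and −2.05) had larger differences after LPS than before. Akr1c12 had 1.74 and 2.01 and Gtsf1 1.28 and 1.45. None of these genes changed its direction.

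**Figure D5:**
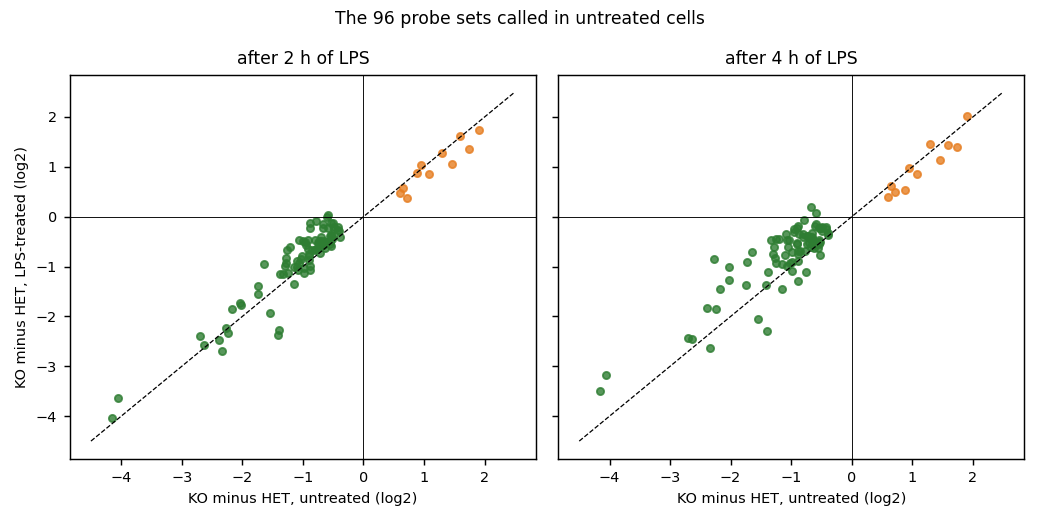
Difference between KO and HET (KO minus HET, log2) after 2 h (left) and 4 h (right) with LPS against that in untreated cells, 1 point for each of the 96 probe sets called in untreated cells, with a dashed line where both are equal. Most of the 85 lower points lie above the line, nearer to 0 on the vertical axis (medians −0.65 at 2 h and −0.55 at 4 h against −0.89), and the 11 higher points stay above 0.

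Without HET replicate 1 at all 3 times, 127 probe sets were called (0.601%), of which 113 were lower (0.535%) and 14 higher (0.0662%). Of the 96, 79 were called again (69 lower, 10 higher), 17 were not, and all 96 kept their direction. In 38 of the 96, HET replicate 1 lay nearer to the KO arrays than both other HET arrays did. Some HET array lies nearest in every called probe set. The counts for the other HET arrays and the share over all probe sets are not given here, so this count is a description only. When only its untreated array was left out, with its LPS arrays kept in the estimate of the spread, 59 probe sets were lower and 6 higher. Of the 48 probe sets called only without HET replicate 1 at all times, the lowest were the carbonic anhydrase gene Car13 (−2.10), the kinase gene Cdc42bpa (−1.77), Tcf19 (−1.44), the adaptor gene Gab1 (−1.37) and the helicase gene Dhx40 (−1.22). Tcf19 was at 8.16 on HET replicate 1, 10.50 and 10.88 on the other HET arrays and 8.98 to 9.47 in KO. The highest were Gdf3 (1.62), a growth factor of the TGF-beta family, the serotonin receptor gene Htr2b (0.93), the nuclear receptor gene Nr4a2 (0.84) and the pyruvate carboxylase gene Pcx (0.42).

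The calls were not all equally firm. Only 32 of the 96 probe sets kept their call in all 6 of the fits that left out 1 untreated array. Among them were Pigp (10545528), Taf9b, Stau2, Maged1, 4 probe sets of Dip2c, Arhgap5, Ttc3, Nipa1, Tlr3, both of Gkap1, Tbc1d12, Eif5a2, Pcgf2 and Pigz, and, of the higher ones, Akr1c12, Pla2g5 and Gtsf1. In a fit of the 6 untreated arrays alone, which leaves fewer degrees of freedom, 15 of these 32 were called. Of those just named, the call was lost there by Arhgap5 (adjusted p = 0.0514), Nipa1 (0.0566), Tlr3 (0.0733), Gkap1 (0.0765 and 0.0838), Pigz (0.0652), the fourth Dip2c probe set (0.0838), Akr1c12 (0.136), Pla2g5 (0.0703) and Gtsf1 (0.0514). The counts in these fits ran from 31 to 59 lower and from 3 to 9 higher, the lowest being without KO replicate 3. Chil3 and Slc36a4 lost their call whichever array was left out, with adjusted p up to 0.210 and 0.200 without KO replicate 3. Fmnl2, Pde3b, Zdhhc2, Akr1c18, Mcoln3 and Gm14461 lost it in 5 of the 6 fits. Their highest adjusted p was 0.113 for Fmnl2, 0.199 for Mcoln3 and 0.0860 for Gm14461 without KO replicate 3, 0.234 for Pde3b and 0.234 for Zdhhc2 without KO replicate 2, and 0.0975 for Akr1c18 without KO replicate 2. Smoc1, Pla2g2e, Sez6l2 and Acy3 lost it in 4, with 0.0807, 0.170, 0.147 and 0.142 without KO replicate 3. Fer and Ube2e2 lost it in 3, like the second Pigp probe set, with 0.125 and 0.0856 without KO replicate 3. Each of these kept its direction in all 6 fits.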

How the data were processed

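RNA was measured on 18 Affymetrix gene arrays, 3 for each of 6 groups. The authors deposited log2 values from RMA, a method that corrects background, equalizes the distribution of the arrays and sums up the probes of a set, in Partek 6.5 (per the submitters' processing notes). Its settings, any filter and the genome build are not stated in the labels. Arrays carry no depth. The values were used as deposited. Of 25344 probe sets, 2677 without a gene and 1530 with several genes in the platform's table were left out. The other 21137 entered a linear model with 6 group means in limma 3.58.1 in R 4.3.3 (12 residual degrees of freedom, prior 3.12, prior SD 0.14) and tested on simulated data. The contrast was KO minus HET in untreated cells, with calls at a limma adjusted p (Benjamini-Hochberg) below 0.05, with the same contrast at 2 h and 4 h and its change with LPS. Groups came from the array titles.

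Lists were described by counts and medians, each gene by its probe set with the highest mean. Genes named were Wbp7, Pigp and Cd14, up to 12 of the highest (11 were called) and the 20 lowest called probe sets, called list members and up to 2 others per list, opposite-strand partners of called genes and up to 5 of the highest and of the lowest called only without HET replicate 1. Zfp27, Pcgf2, Dock6, Cmtm4, Tanc2, Maged2, Taf9 and the second Gkap1 probe set lie outside this rule. They were chosen after their values were seen. The Dip2c probe sets 10403462 and 10403453, the probe sets with no gene and some members of the marker lists lie outside it too. The comparison, the lists and the rules were chosen with earlier results of these data known. For 3 list members an older symbol was replaced by the RefSeq one, and for 84 probe sets the gene was not in the RefSeq table. Windows came from RefSeq (GRCm38.p6). Python 3.11.15 with matplotlib 3.10.9 drew the figures. Alternatives changed the scaling, the probe sets, the prior, the weights, the blocks, the fold minimum and the arrays.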

Additional observations from a re-analysis of the deposited data

How the results depend on the processing

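None of the 33 called probe sets named by the rule above changed direction under any alternative fitted. Those named outside that rule were not part of this check. Values without a call could cross 0: the cell cycle median ran from −0.14 to 1.34, that of sterol genes from −0.20 to 0.14, that of Toll-like receptors from −0.20 to 0.04, that of GPI anchor synthesis from −0.02 to 0.04, and Cd14 from −0.24 to 0.13. The main counts were 85 lower and 11 higher. Quantile normalization gave 51 lower, leaving out dim probe sets 55 and 7, array quality weights 160 and 34, the 6 untreated arrays alone 21 and 3, and a 2-fold minimum 34 and 6; the last 4 of these give lower and higher in turn. Leaving out 1 untreated array gave 31 to 59 lower and 3 to 9 higher. Replicate number as a block gave 109 lower and 24 higher, but the numbers were not read as pairs, since same-numbered HET and KO arrays had correlations of 0.16, −0.34 and −0.19. The other alternatives kept both counts within 1.5 times. Of the same 33 probe sets, 18 kept the call whenever 1 array was left out and 10 kept it under every alternative where they were fitted. The cause of these shifts was not tested, except that the 6 arrays alone leave fewer residual degrees of freedom and the fold minimum and the dim filter remove probe sets by construction.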

Other observations

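A fit over all 25344 probe sets called 97, of which 3 were among the 4207 with no gene or with several genes in the platform's table. The probe set 10548565, which has no gene there, gave 6.36, 6.60 and 6.83 in HET and 4.45, 4.40 and 4.10 in untreated KO cells, a difference of −2.28 (SE 0.25, limma adjusted p = 2.69e-04). Its difference was −2.93 at 2 h and −3.32 at 4 h with LPS. All its signals were near or under the lower quartile of the arrays. The probe sets 10395520 (−0.47, adjusted p = 0.0316) and 10506125 (−0.47, adjusted p = 0.0467) also have no gene in that table and were lower on every KO array.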
